A study of Mus musculus with 12 samples.

Results

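The phagocyte NADPH oxidase is the enzyme with which neutrophils and macrophages turn oxygen into superoxide to kill ingested microbes. Its catalytic core is a membrane heterodimer, flavocytochrome b558, made of Cybb (gp91phox, also called Nox2, which carries electrons from NADPH across the membrane) and Cyba (p22phox, which stabilises Cybb and docks the cytosolic proteins). Cells at rest keep further components in the cytosol, among them the organiser Ncf1 (p47phox), Ncf4 (p40phox, which binds a phosphoinositide of the phagosome) and the blood-cell GTPase Rac2, and the enzyme works only once the cytosolic components join the core. Loss of certain subunits in humans causes chronic granulomatous disease. The 5 genes described here, Cybb, Cyba, Ncf1, Ncf4 and Rac2, were chosen by name as subunits of this enzyme. All 5 were present in each of the 3 tables of the study, among 22339 gene symbols common to the tables. The partner GTPases Rac1 and Rap1a are given beside them.

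RNA sequencing was done on 12 libraries of C57BL/6 mouse bone marrow cells in 6 groups of 2. In the MLL-AF9 cotransduction, Lin- cells (depleted of cells with mature lineage markers) received the leukaemia fusion gene MLL-AF9 along with either PRDM16 or its mutant form PRDM16mut. Other Lin- cells received the fusion gene E2A-HLF with PRDM16 or PRDM16mut (the E2A-HLF cotransduction). For the MLL-AF9 stable cells, marrow cells that already carried MLL-AF9 received PRDM16 or PRDM16mut. Cells grew in 15% FBS with IL3, IL6 and SCF (each 10 ng/ml), under selection for 10 days before harvest; both cotransductions used G418 plus puromycin and the stable cells used puromycin. PRDM16 is a transcriptional regulator of the PR domain family, and the labels do not say what PRDM16mut changes. Every group expresses a fusion oncogene, the same for both forms within an experiment. Each group also has 1 form of PRDM16, so a difference between the forms may come from either form. The labels do not say whether the 2 libraries of a group are separate cultures, so each p-value is set against the spread of these libraries alone, and that spread may be technical.

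Levels are FPKM, the fragments of a gene scaled to transcript length and to all mapped fragments of the library, which allows genes to be compared within a library. Summed FPKM ran from 570872 to 683269 per library, and the total depth is unknown, because the tables hold no counts. Prdm16 itself measured 83.9 and 119 FPKM with PRDM16 against 29.5 and 30.1 with PRDM16mut in the MLL-AF9 cotransduction. The form and the level of Prdm16 therefore cannot be told apart there. In the other 8 libraries Prdm16 measured between 43.5 and 94.6 FPKM. The myeloid regulator Sfpi1 (PU.1) was above 100 FPKM in all libraries, and 7 of 8 B cell markers and 7 of 8 T and NK cell markers were under 1 FPKM in every library. The libraries are bulk RNA, so fewer cells of a type and less RNA per cell cannot be told apart.

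The 5 subunits did not share a pattern. Ncf1, Ncf4 and Rac2 fell with PRDM16 in the MLL-AF9 cotransduction, Cybb fell less, and Cyba did not pass the test there. Cyba, Ncf1 and Ncf4 rose with PRDM16 in the E2A-HLF cotransduction, while Cybb, the catalytic subunit, was near or under 1 FPKM in all 4 libraries. In the MLL-AF9 stable cells Cybb alone passed the test, and it rose. The Cybb calls in both MLL-AF9 experiments were lost under some of the alternatives tried.

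The promoter stretches of both chains of the flavocytochrome are shown because these 2 partners parted furthest in level in the E2A-HLF cells. Each is the 250 bases before the RefSeq transcription start (build GRCm38.p6, read 5′ to 3′ on the gene's own minus strand), with the CCAAT box in capitals where there is one. The Cybb stretch lies at chrX:9469325-9469574 and the Cyba stretch at chr8:122432941-122433190.
Cybb: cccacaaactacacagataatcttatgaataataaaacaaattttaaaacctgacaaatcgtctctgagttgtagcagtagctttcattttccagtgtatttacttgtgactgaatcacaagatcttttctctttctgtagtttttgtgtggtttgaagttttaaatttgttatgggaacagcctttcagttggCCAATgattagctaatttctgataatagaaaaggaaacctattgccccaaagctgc
Cyba: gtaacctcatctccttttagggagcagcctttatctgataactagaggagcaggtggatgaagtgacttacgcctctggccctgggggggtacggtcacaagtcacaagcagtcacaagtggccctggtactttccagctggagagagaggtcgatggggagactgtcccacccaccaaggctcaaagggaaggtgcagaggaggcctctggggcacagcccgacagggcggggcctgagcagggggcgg
The Cybb stretch was 34.0% G and C with 1 CG dinucleotide, and only 3.87% of 32851 promoters had a lower share. The Cyba stretch was 60% G and C with 6 CG dinucleotides, against a median of 52.4% over all promoters. Both strands were searched for GAGGAA (the core of many PU.1 sites), the composite ETS/IRF motif (an ETS site joined to an IRF site) and CCAAT, which are held by 23.3%, 2.30% and 33.8% of such stretches. Cybb held 1 CCAAT, 56 to 52 bases before the start, and neither Cyba nor Ncf1, the third member in the promoter table, held any of the 3. A search extended over the start, made after the first result was seen, found the composite ETS/IRF motif on the opposite strand at bases 4 to 13 of the Cybb transcript. It reads, in capitals and with its surroundings:
Cybb: gctgctgtTTTCATTTCCtcatcaga
A GAGGAA overlaps it at bases 10 to 15. Over the 300 bases around all starts, 2.72% held the composite motif and 28.3% held GAGGAA. A match of letters is a description and shows no binding.

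Cybb had the widest range of any subunit. In the MLL-AF9 cotransduction it measured 43.9 and 42.2 FPKM with PRDM16, against 53.2 and 55.1 with PRDM16mut. In the E2A-HLF cotransduction it measured 0.121 and 0.169 FPKM with PRDM16, against 0.843 and 1.04 with PRDM16mut. In the MLL-AF9 stable cells it measured 19.0 and 19.5 FPKM with PRDM16, against 14.3 and 14.9 with PRDM16mut. The groups did not overlap in any experiment, as was so for 86.3% of genes tested in the MLL-AF9 cotransduction, 73.7% with E2A-HLF and 60.6% in the stable cells, and the PRDM16 libraries were the lower ones in both cotransductions and the higher ones in the stable cells. The rank of Cybb within each library does not depend on how the 3 tables were scaled: 91.3% and 90.9% of table entries lay below it with PRDM16 in the MLL-AF9 cotransduction, 45.4% and 46.7% in the E2A-HLF cotransduction, and 81.8% and 82.2% in the stable cells. The PRDM16mut libraries gave 92.8% and 93.2%, 52.6% and 53.8%, and 77.9% and 78.4% in the same order of experiments.

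Cyba was the most abundant subunit in every library. It measured 868 and 978 FPKM with PRDM16, against 968 and 946 with PRDM16mut, in the MLL-AF9 cotransduction. It measured 325 and 314 FPKM with PRDM16, against 222 and 239 with PRDM16mut, in the E2A-HLF cotransduction. The groups did not overlap there, as was so for 73.7% of genes tested. Cyba measured 686 and 688 FPKM with PRDM16, against 681 and 700 with PRDM16mut, in the stable cells. The groups overlapped in both MLL-AF9 experiments. At least 98.5% of entries lay below Cyba in all 12 libraries.

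Ncf1, the organiser that carries the cytosolic complex to the membrane, measured 174 and 179 FPKM with PRDM16, against 315 and 319 with PRDM16mut, in the MLL-AF9 cotransduction. It measured 135 and 135 FPKM with PRDM16, against 94.6 and 93.4 with PRDM16mut, in the E2A-HLF cotransduction. In the stable cells it measured 240 and 240 FPKM with PRDM16, against 227 and 238 with PRDM16mut. The 2 cotransductions thus went opposite ways for Ncf1, each without overlap. So did not overlap 86.3% of genes tested in the MLL-AF9 cotransduction and 73.7% with E2A-HLF. In the GENCODE annotation of another build, 408 of the 3663 exon bases of Ncf1 lie over exons of Gtf2ird2 on the opposite strand, and the library kit used does not mark strand. Gtf2ird2 was at 5.59 FPKM or less in all libraries.

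Ncf4 measured 39.9 and 42.2 FPKM with PRDM16, against 130 and 124 with PRDM16mut, in the MLL-AF9 cotransduction. It measured 34.5 and 33.6 FPKM with PRDM16, against 21.9 and 23.5 with PRDM16mut, in the E2A-HLF cotransduction. In the stable cells it measured 88.8 and 92.6 FPKM with PRDM16, against 86.6 and 93.0 with PRDM16mut. As a ratio of means it had the widest gap between the forms of the 5 members in the MLL-AF9 cotransduction, and the groups overlapped only in the stable cells. Groups did not overlap for 86.3% of genes tested in the MLL-AF9 cotransduction and 73.7% with E2A-HLF.

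Rac2, the GTPase that switches the complex on, measured 166 and 187 FPKM with PRDM16, against 306 and 303 with PRDM16mut, in the MLL-AF9 cotransduction. It measured 147 and 141 FPKM with PRDM16, against 129 and 131 with PRDM16mut, in the E2A-HLF cotransduction. In the stable cells it measured 260 and 250 FPKM with PRDM16, against 255 and 256 with PRDM16mut, and these groups overlapped.

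**Figure D1:**
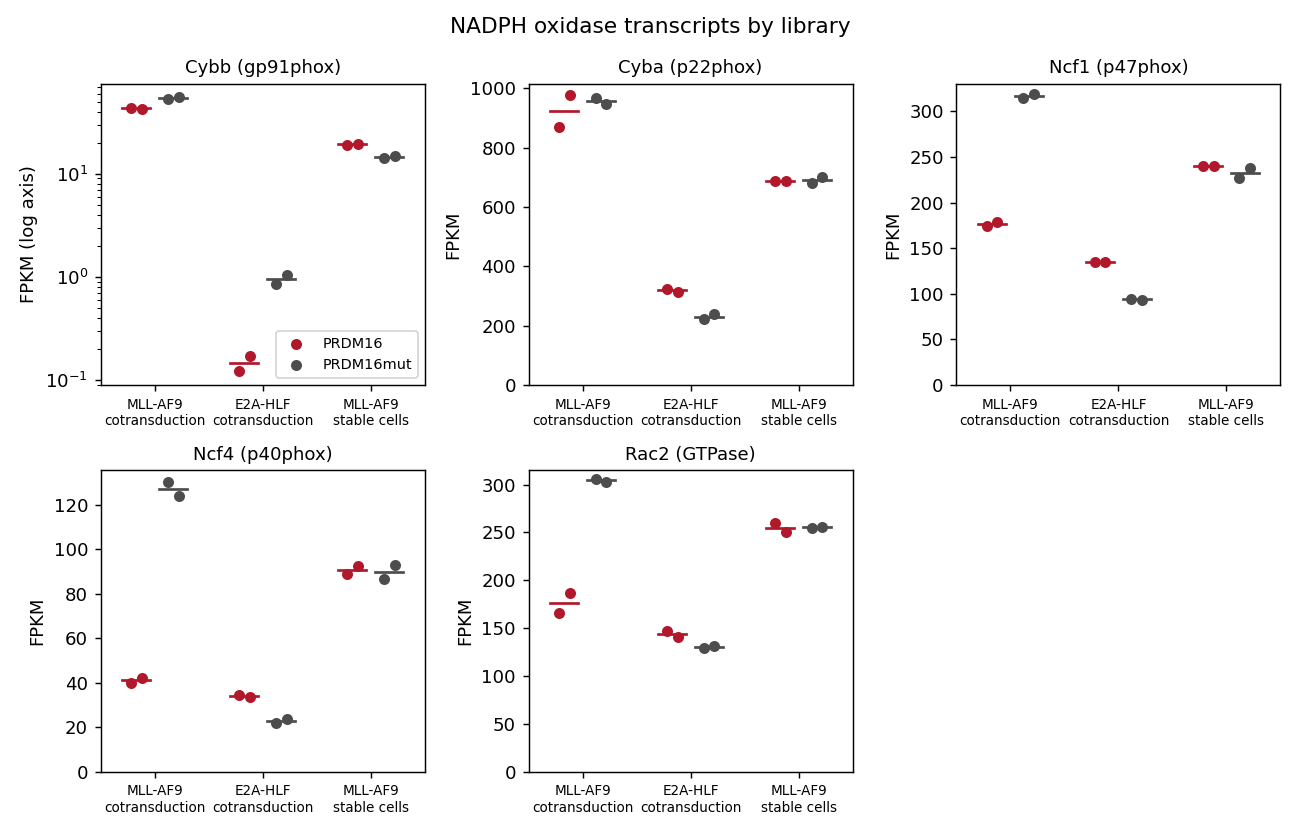
FPKM (vertical axis, a log axis for Cybb and linear from 0 for the others) of the 5 members in each of the 12 libraries, by experiment along the horizontal axis. Points are libraries with PRDM16 (red) or PRDM16mut (grey) and bars are means of 2. Ncf4 lies at 39.9 and 42.2 with PRDM16 against 130 and 124 with PRDM16mut in the MLL-AF9 cotransduction, and Cybb lies at 1.04 or less in all E2A-HLF libraries.

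Each table was tested alone with limma on log2 of FPKM plus 1, and differences below are PRDM16 minus PRDM16mut on that scale. Called means a p under 0.05 after Benjamini-Hochberg adjustment over every gene tested in that table. In the MLL-AF9 cotransduction 4 of 5 members were called lower with PRDM16, where 34.0% of 11071 genes tested were called lower and 69.5% were called in either direction. Their median difference was -0.79, against 0.01 over all genes tested. Ncf4 differed by -1.60 (SE 0.0575, limma adjusted p = 1.76e-05), to 0.324 times the mean FPKM of PRDM16mut cells. Ncf1 fell by 0.84 (SE 0.048, limma adjusted p = 7.36e-05) and Rac2 fell by 0.79 (SE 0.071, limma adjusted p = 0.000357). Cybb fell less, by 0.32 (limma adjusted p = 0.0036), and this call was lost when either PRDM16mut library was left out (adjusted p of 0.0527 and 0.0792). Cyba differed by -0.06, with a 95% interval from -0.23 to 0.12 (limma adjusted p = 0.513), so the test did not separate the groups. Its value turned to 0.03 without PRDM16 replicate 1, and without PRDM16 replicate 2 it was called lower, at -0.14.

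The 2 partner GTPases did not pass in the MLL-AF9 cotransduction. Rac1, the widely expressed relative of Rac2, measured 184 and 178 FPKM with PRDM16, against 176 and 169 with PRDM16mut (0.07, limma adjusted p = 0.27). Rap1a, a GTPase found bound to the flavocytochrome, differed by -0.08 (limma adjusted p = 0.402), but it was called lower without PRDM16 replicate 1 (-0.19, adjusted p = 0.00718) and stood at 0.02 without PRDM16 replicate 2. The direction of Rac1 turned under quantile normalization. In the GENCODE transcripts 50.3% of the 50-base windows of Rac1 also occur in Daglb, so its level and the ratio of Rac2 to Rac1 are uncertain where reads were split or shared.

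Markers of blood cell types differed in the same libraries. The 16 neutrophil markers in the table summed to 1206 and 1147 FPKM with PRDM16, against 54555 and 53479 with PRDM16mut, and 15 of 16 were called lower and 1 higher. Over all genes tested, 34.0% were called lower and 35.6% higher. The 12 mast cell and basophil markers summed to 218 and 219 FPKM with PRDM16, against 2252 and 2234 with PRDM16mut, with 10 of 11 tested lower and 1 higher. The 15 monocyte and macrophage markers summed to 5208 and 5271 FPKM with PRDM16, against 2190 and 2203 with PRDM16mut, with 9 of 12 tested higher and 2 lower, and 1 of them, Ly86, was listed at 0. The 13 erythroid markers summed to 1289 and 1111 FPKM with PRDM16, against 204 and 182 with PRDM16mut, with 9 of 9 tested higher, where 35.6% of all genes tested were called higher. None of the 16 neutrophil markers was at 0 in all 4 libraries. The part of these cell types in the oxidase differences was not tested. The ribosomal RNA precursor Rn45s was listed at 0 with PRDM16, in either library, against 1542 and 1554 FPKM with PRDM16mut. It measured 941 to 1170 FPKM in the E2A-HLF libraries and 955 to 1451 in the stable cells. A difference in processing between the forms here cannot be told apart from the form itself, and its part was not tested.

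In the E2A-HLF cotransduction 4 of 5 members passed the filter (at least 1 FPKM in at least 2 of 4 libraries) and all 4 were called higher with PRDM16, where 22.7% of 11010 genes tested were called higher and 43.8% in either direction. The median of the 4 was 0.49, against 0.01 over all genes tested. Ncf4 rose by 0.57 (SE 0.0502, limma adjusted p = 0.000375), Ncf1 by 0.52 (SE 0.0408, limma adjusted p = 0.000234) and Cyba by 0.47 (SE 0.0571, limma adjusted p = 0.00134), which are 1.5, 1.44 and 1.39 times the mean FPKM of PRDM16mut cells. Rac2 rose by 0.15 (limma adjusted p = 0.0408), and this call was lost under quantile normalization (0.06, adjusted p = 0.15), under median centring (0.11, adjusted p = 0.0824), without a variance trend (adjusted p = 0.06), with the replicate number as a block (adjusted p = 0.131) and when any 1 of the 4 libraries was left out. Cybb was under the filter and was not tested. Its mean FPKM was 0.145 ± 0.0344 with PRDM16 and 0.944 ± 0.142 with PRDM16mut (SD, n = 2 each), a ratio of 0.154, and fitted without a filter it differed by -0.76 (limma adjusted p = 0.00327). At this level the added 1 FPKM shrinks the difference, and the number of reads behind it is unknown.

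Of the partner GTPases in the E2A-HLF cotransduction, Rap1a measured 86 and 83.3 FPKM with PRDM16, against 67.8 and 72.2 with PRDM16mut, and rose by 0.27 (limma adjusted p = 0.0067). Rac1 differed by -0.16 (limma adjusted p = 0.0648), and it was called lower under quantile normalization, under median centring, with the spread shared over 12 libraries and without PRDM16mut replicate 1 (-0.23, adjusted p = 0.0177), and stood at -0.10 without PRDM16mut replicate 2. The neutrophil markers summed to 1986 and 1900 FPKM with PRDM16, against 712 and 728 with PRDM16mut, with 10 of 13 tested higher and 1 lower, and 3 of the 16 (Camp, Ltf and Mmp9) were under 1 FPKM in all 4 libraries. The monocyte and macrophage markers summed to 465 and 437 FPKM with PRDM16, against 118 and 122 with PRDM16mut, with 6 of 10 tested higher and 4 lower, and 5 of the 15, Csf1r among them, were under 1 FPKM. Over all genes tested in this experiment, 22.7% were called higher and 21.1% lower. The part of either cell type in the oxidase differences was not tested.

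In the MLL-AF9 stable cells 1 of 5 members was called, and it was higher with PRDM16, where 4.20% of 10580 genes tested were called higher, 2.16% lower and 6.36% in either direction. Cybb rose by 0.38 (SE 0.0369, limma adjusted p = 0.0121), to 1.32 times the mean FPKM of PRDM16mut cells. The call was lost without a filter on low values (adjusted p = 0.0653) and when either PRDM16 library or PRDM16mut replicate 1 was left out (adjusted p of 0.0729, 0.0929 and 0.0508), with differences of 0.35 to 0.40. The remaining 4 members had intervals close to 0 on both sides: -0.09 to 0.08 for Cyba, -0.04 to 0.13 for Ncf1, -0.10 to 0.13 for Ncf4 and -0.08 to 0.08 for Rac2 (limma adjusted p of 0.924, 0.421, 0.853 and 0.953). Rap1a was called higher by 0.17 (limma adjusted p = 0.0369), a call lost under most alternatives tried, and Rac1 did not pass (0.11, limma adjusted p = 0.0792). The neutrophil markers summed to 15585 and 15715 FPKM with PRDM16, against 14862 and 15460 with PRDM16mut, with 1 of 16 higher and 2 lower. The monocyte and macrophage markers summed to 358 and 364 FPKM with PRDM16, against 292 and 293 with PRDM16mut, with 3 of 11 tested higher, and their part in the Cybb difference was not tested.

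**Figure D2:**
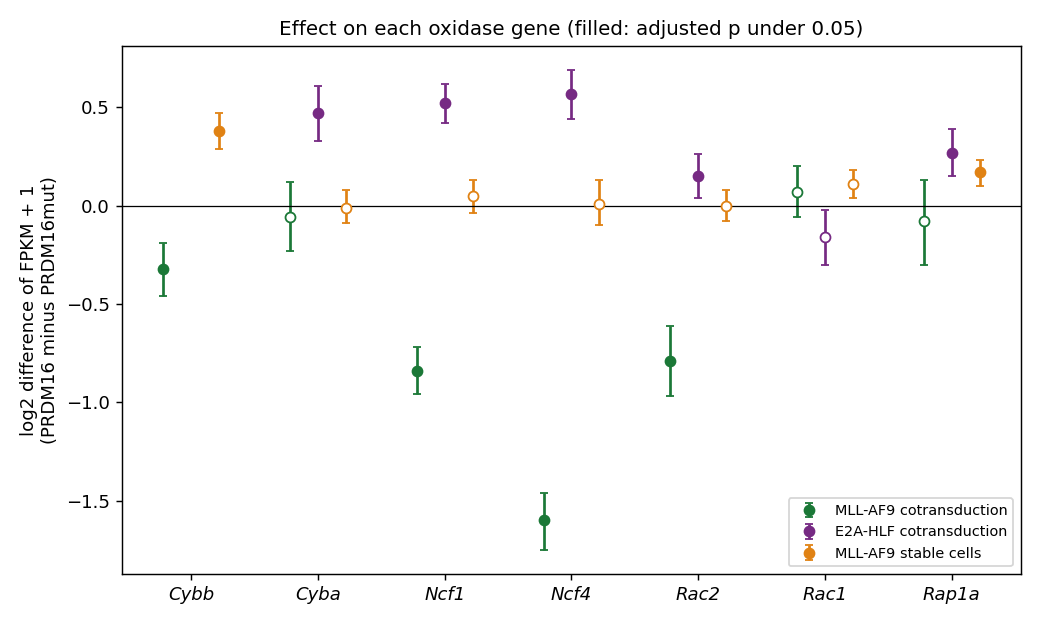
Difference of log2(FPKM + 1), PRDM16 minus PRDM16mut (vertical axis), for the 5 members and 2 partner GTPases (horizontal axis) in the 3 experiments (colours), with 95% limma intervals, 2 libraries against 2. Filled points were called. Ncf4 stands at -1.60 in the MLL-AF9 cotransduction, 0.57 in the E2A-HLF cotransduction and 0.01 in the stable cells, and Cybb has no E2A-HLF point because it was under the filter.

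Whether the difference between the forms itself changed with the experiment was tested in 1 limma fit of all 12 libraries, over the 9475 genes above the filter in all 3 tables. Set against the E2A-HLF cotransduction, the MLL-AF9 cotransduction had a lower effect for all 4 members in this fit, with differences of -2.17 for Ncf4 (SE 0.0745, limma adjusted p = 1.95e-09), -1.36 for Ncf1, -0.94 for Rac2 and -0.53 for Cyba, where 71.4% of genes differed. Set against the stable cells, it had a lower effect for Ncf4 (-1.62), Ncf1 (-0.89) and Rac2 (-0.78), where 64.0% of genes differed, and Cyba did not pass (-0.05, limma adjusted p = 0.623). The E2A-HLF cotransduction had a higher effect than the stable cells for Ncf4 (0.55), Cyba (0.48) and Ncf1 (0.47), where 37.0% of genes differed, and Rac2 did not pass (0.15, limma adjusted p = 0.146). Cybb was left out of this fit by the filter.

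The balance between the subunits was read within each library, where scaling cancels. Cyba over Cybb was 19.8 and 23.2 with PRDM16, against 18.2 and 17.2 with PRDM16mut, in the MLL-AF9 cotransduction. It was 2690 and 1857 with PRDM16, against 263 and 229 with PRDM16mut, in the E2A-HLF cotransduction, and 36.1 and 35.3 with PRDM16, against 47.8 and 47 with PRDM16mut, in the stable cells. The 2 chains of the heterodimer were furthest apart in transcript level in the E2A-HLF libraries with PRDM16 and closest in the MLL-AF9 cotransduction. The E2A-HLF ratios divide by Cybb values of 1.04 FPKM or less with an unknown number of reads, so their size is uncertain.

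The balance of the cytosolic members differed between the forms in the MLL-AF9 cotransduction, where Ncf1 over Ncf4 was 4.36 and 4.25 with PRDM16, against 2.43 and 2.58 with PRDM16mut. It was 3.92 and 4 with PRDM16, against 4.32 and 3.97 with PRDM16mut, in the E2A-HLF cotransduction, where the groups overlapped, and between 2.56 and 2.71 in the 4 stable-cell libraries. Rac2 over Rac1 was 0.901 and 1.05 with PRDM16, against 1.74 and 1.80 with PRDM16mut, in the MLL-AF9 cotransduction, and 1.04 and 1 with PRDM16, against 0.853 and 0.788 with PRDM16mut, in the E2A-HLF cotransduction. Ranked by mean FPKM, the 5 genes ran Cyba, Rac2, Ncf1, Cybb, Ncf4 with PRDM16 in the MLL-AF9 cotransduction, where the Rac2 and Ncf1 libraries overlapped, and Cyba, Ncf1, Rac2, Ncf4, Cybb with PRDM16mut. Both E2A-HLF groups and both stable-cell groups had the order Cyba, Rac2, Ncf1, Ncf4, Cybb.

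**Figure D3:**
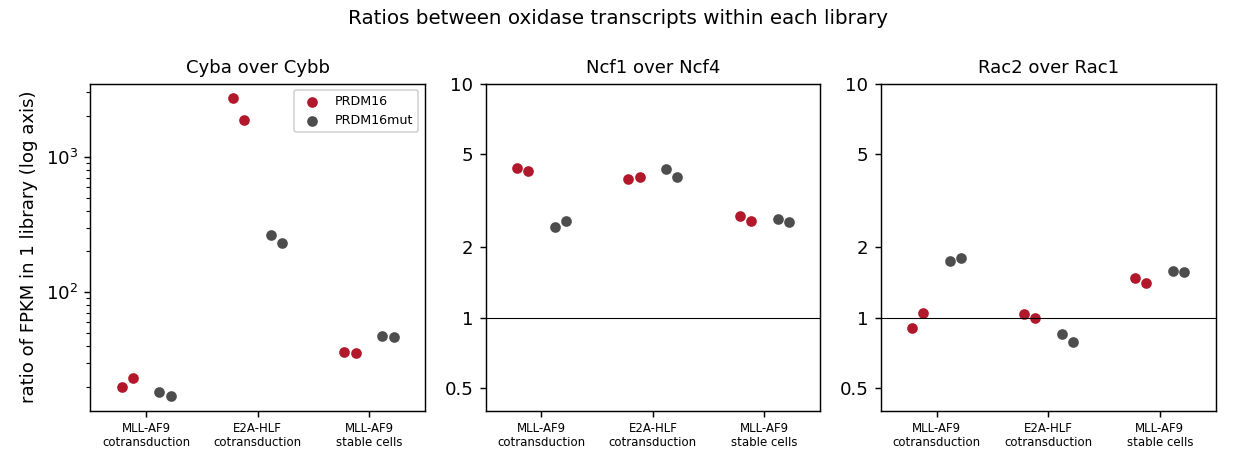
Ratio of the FPKM of 2 genes in 1 library (vertical axes, log scale, a wider range for Cyba over Cybb) by experiment, with PRDM16 (red) and PRDM16mut (grey) libraries as points. Cyba over Cybb reaches 2690 and 1857 with PRDM16 in the E2A-HLF cotransduction, where Cybb was only 0.121 and 0.169 FPKM. Ncf1 over Ncf4 is 4.36 and 4.25 with PRDM16 against 2.43 and 2.58 with PRDM16mut in the MLL-AF9 cotransduction.

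Over the 12 libraries, with each table's own mean taken out of log2(FPKM + 1), Ncf4 followed Rac2 (Pearson r = 0.978) and Ncf1 (0.974), and Ncf1 followed Rac2 (0.924). Cybb and Cyba ran against each other (-0.745), a value that draws on Cybb at 1.04 FPKM or less in the E2A-HLF libraries. These values describe libraries that share 3 tables and 6 groups, so they rest on few independent points. Of 462 genes with enough variation, those with the pattern most like Ncf4 were Serpinb1a (0.997), Lcn2 (0.996) and Mgst2 (0.996), those most like Ncf1 were Rnd1 (0.998), Mgl2 (0.997) and Mtus1 (0.997), and those most like Rac2 were Snai3 (0.996), Rdh12 (0.993) and Sun2 (0.992). Cyba was nearest to Slc7a8 (0.973), Pstpip2 (0.967) and Siglec5 (0.952), and Cybb to Oas1g (0.903), Rhobtb3 (0.896) and Dhx58 (0.876). Only genes of wide variation over the libraries were compared, and r does not compare sizes of change. In the MLL-AF9 cotransduction Lcn2 differed by -5.52, beside -1.60 for Ncf4, and Dhx58 by -0.06, beside -0.32 for Cybb. In the E2A-HLF cotransduction Slc7a8 differed by 2.38, beside 0.47 for Cyba.

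Ncf4 and Rac2 both lie on chromosome 15, with 10 protein-coding genes between them in RefSeq. The tested genes around them moved in both directions. Csf2rb2 and Csf2rb, beta chains of the IL3 and GM-CSF receptors that lie next to Ncf4, rose with PRDM16 in the MLL-AF9 cotransduction (0.30 and 0.62, limma adjusted p of 0.008 and 0.000703), where Ncf4 fell, and rose by 1.53 and 1.55 in the E2A-HLF cotransduction. These 2 genes are close copies and their reads may be split between them. Tst and Mpst, enzymes of sulphur metabolism, fell in both cotransductions (Tst by 2.19 and 0.43, Mpst by 0.72 and 0.22). Cyth4, next to Rac2, rose by 0.37 in the MLL-AF9 cotransduction and did not pass in the other 2 experiments.

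**Figure D4:**
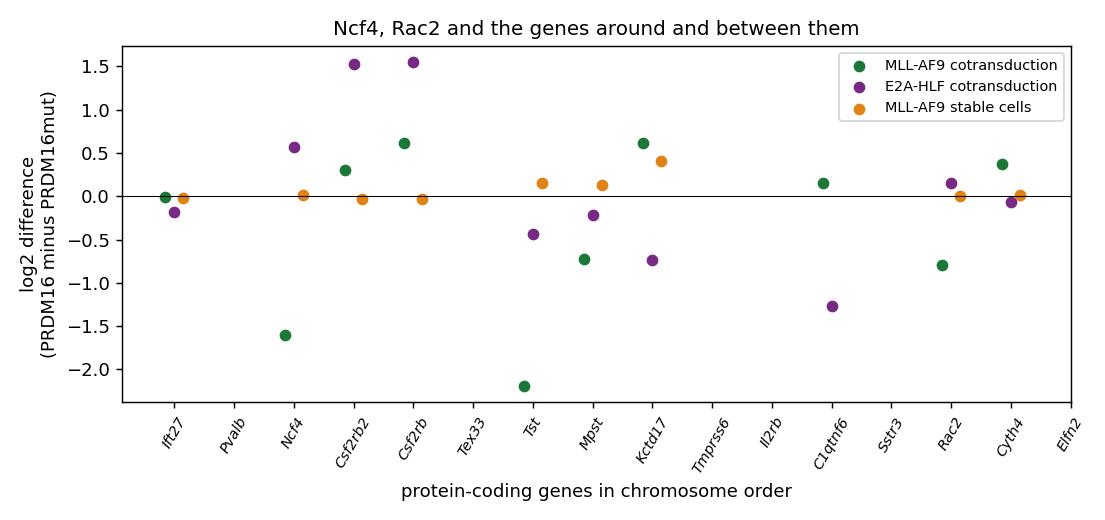
Difference of log2(FPKM + 1), PRDM16 minus PRDM16mut (vertical axis), for genes in chromosome order from 2 before Ncf4 to 2 after Rac2 (horizontal axis; order only, not distance), in the 3 experiments (colours). Genes without points were under the filter or not in a table. Ncf4 stands at -1.60 and its neighbour Csf2rb2 at 0.30 in the MLL-AF9 cotransduction.

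Genes that activate the oxidase were counted from a list of 22 that covers exchange factors and inhibitors of Rac, kinases that phosphorylate the cytosolic subunits, lipid kinases and the proton channel. In the MLL-AF9 cotransduction 11 of 22 were lower and 6 higher with PRDM16 (median -0.21), where 34.0% and 35.6% of all genes tested were. Prkcb, a protein kinase C, measured 4.73 and 4.67 FPKM with PRDM16, against 23.3 and 24.6 with PRDM16mut, and fell by 2.13. Arhgdib, the blood-cell inhibitor that holds Rac in the cytosol, measured 696 and 733 FPKM with PRDM16, against 1626 and 1655 with PRDM16mut, and Vav3, an exchange factor, measured 2.85 and 2.76 FPKM with PRDM16, against 6.59 and 6.63 with PRDM16mut. In the E2A-HLF cotransduction 10 of 22 were higher and 2 lower (median 0.13), where 22.7% and 21.1% of all genes tested were. Prkcb rose by 1.72 there, the kinase Pak1 fell by 0.67 and the exchange factor Tiam1 rose by 0.57. In the stable cells 1 of 21 tested was higher, the lipid kinase subunit Pik3cg (0.17), and 2 were lower, the proton channel Hvcn1 (-0.40) and Plcg2 (-0.19), where 4.20% and 2.16% of all genes tested were. The share called in either direction in the MLL-AF9 cotransduction is near the 69.5% of all genes.

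The NADPH that the enzyme burns comes from the pentose phosphate pathway and from malic enzymes and isocitrate dehydrogenases. Of 16 genes of glucose entry and NADPH supply, 9 were lower and 4 higher with PRDM16 in the MLL-AF9 cotransduction (median -0.25), 10 were higher and 2 lower in the E2A-HLF cotransduction (median 0.22), and 1 was higher in the stable cells, the malic enzyme Me2 (0.19). Over all genes tested, 34.0% were lower and 35.6% higher in the MLL-AF9 cotransduction, 22.7% were higher and 21.1% lower with E2A-HLF, and 4.20% were higher in the stable cells. Rpe, a pentose phosphate epimerase, measured 17.6 and 18.2 FPKM with PRDM16, against 43.6 and 43.6 with PRDM16mut, in the MLL-AF9 cotransduction. The malic enzyme Me1 rose by 1.45 there and the mitochondrial Idh2 by 0.87. Me1 fell by 1.30 in the E2A-HLF cotransduction, and G6pdx, which catalyses the first step of the pentose phosphate pathway, measured 84.3 and 85.1 FPKM with PRDM16, against 52.5 and 51.6 with PRDM16mut. The hexokinase Hk3 rose by 0.70.

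Of 12 transcription factors known to act on oxidase or other myeloid genes, 5 were higher and 5 lower with PRDM16 in the MLL-AF9 cotransduction, 5 were higher and 6 lower in the E2A-HLF cotransduction, and none of 12 passed in the stable cells by limma. Over all genes tested, 69.5%, 43.8% and 6.36% were called in these 3 experiments. Cebpe, a regulator of granulocyte maturation, measured 6.46 and 7.11 FPKM with PRDM16, against 106 and 105 with PRDM16mut, in the MLL-AF9 cotransduction, and 17.6 and 17.2 with PRDM16, against 0.438 and 0.437 with PRDM16mut, in the E2A-HLF cotransduction. Hoxa9 and Hoxa10 fell by 4.83 and 4.49 in the MLL-AF9 cotransduction. Hoxa9 fell by 1.52 and Irf1 by 1.17 in the E2A-HLF cotransduction. PU.1 and Irf8, which act together on the human CYBB promoter, were looked at after their values were seen. Sfpi1, the gene of PU.1, measured 257 and 296 FPKM with PRDM16, against 230 and 222 with PRDM16mut, in the MLL-AF9 cotransduction, and 120 and 114 with PRDM16, against 104 and 105 with PRDM16mut, in the E2A-HLF cotransduction. Irf8 measured 12 and 14 FPKM with PRDM16, against 4.90 and 5.52 with PRDM16mut, in the MLL-AF9 cotransduction. In the E2A-HLF cotransduction Irf8 measured 2 and 1.73 with PRDM16, against 3.20 and 3.40 with PRDM16mut. Cybb was lower with PRDM16 in both cotransductions, though under the filter with E2A-HLF. In the stable cells, where Cybb was called higher, Sfpi1 and Irf8 did not pass (0.01 and 0.11, limma adjusted p of 0.832 and 0.224). A link between these genes was not tested.

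The other NADPH oxidases were all but silent. All 9 genes listed (Nox1, Nox3, Nox4, Duox1, Duox2, their maturation factors Duoxa1 and Duoxa2, and the subunit relatives Noxo1 and Noxa1) were under 1 FPKM in every library. Their summed level was 0.404 to 0.618 FPKM in the MLL-AF9 cotransduction, 0.823 to 1.07 in the E2A-HLF cotransduction and 0.669 to 0.755 in the stable cells.

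**Figure D5:**
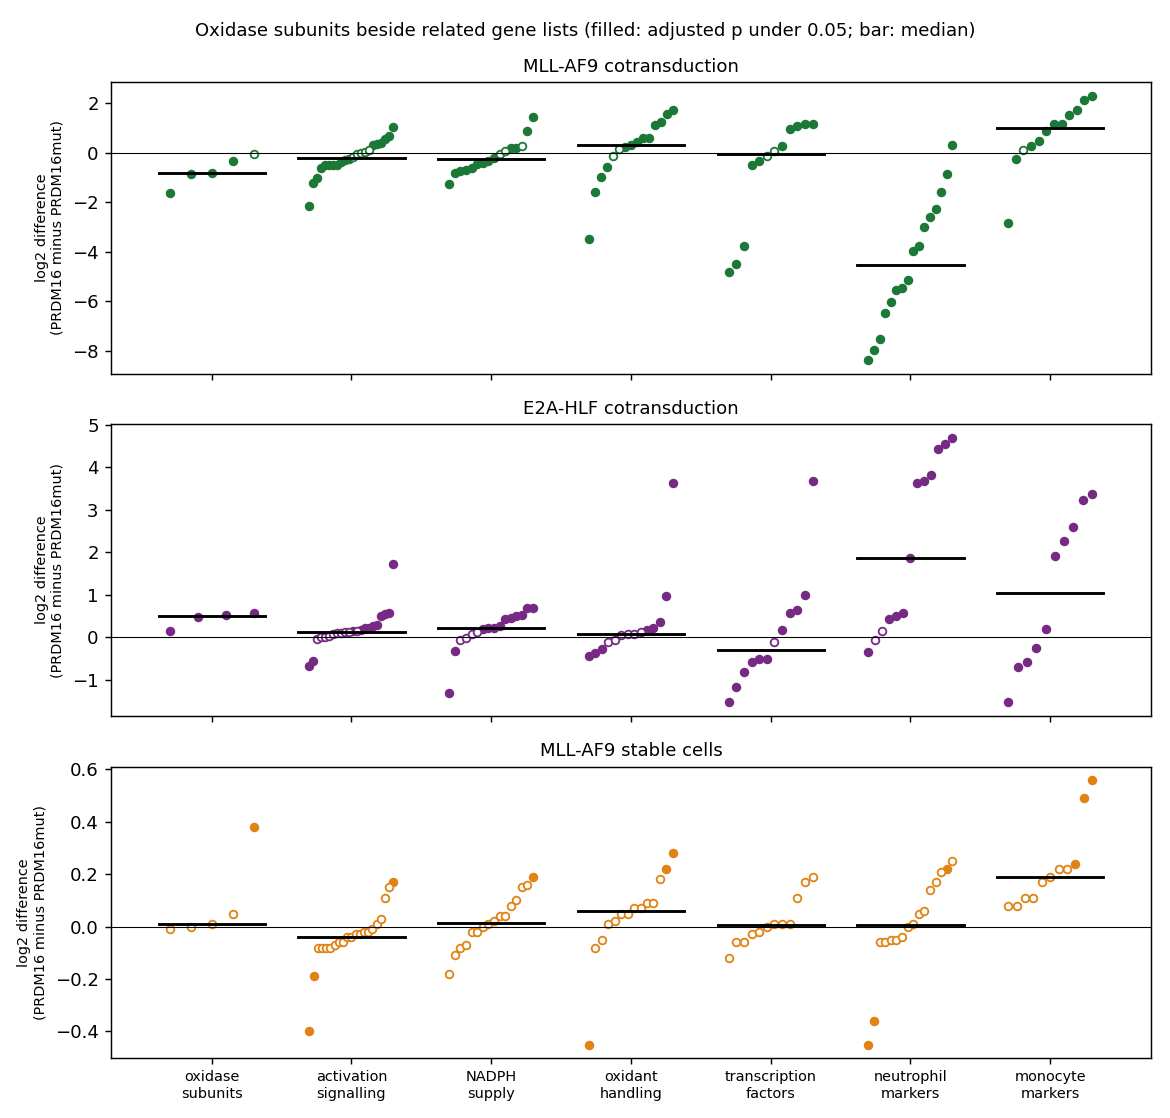
Difference of log2(FPKM + 1), PRDM16 minus PRDM16mut (vertical axes, a different range in each panel), for each tested gene of the oxidase and of 6 related lists, in the 3 experiments. Points are genes, filled where called, and bars are list medians. The oxidase medians are -0.79, 0.49 and 0.01 from top to bottom, and those of the neutrophil markers are -4.54, 1.86 and 0.01.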

How the data were processed

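The authors deposited 1 table of FPKM per experiment, and the values were used as deposited. Per the submitters' processing notes, Bowtie2 2.0.0.7, TopHat2 2.0.3 and Cuffdiff were used with the mm9 build; the labels do not give the annotation, the scaling between libraries or any filter. Relative depth, read from the steps of low FPKM, was 1.63 (replicate 2 over replicate 1) for MLL-AF9 with PRDM16 in the cotransduction and 0.92 to 1.17 in the remaining pairs.

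Each table was fitted alone in R 4.3.3 with limma 3.58.1 on log2(FPKM + 1), with a variance trend, two-sided, for genes with at least 1 FPKM in at least 2 of 4 libraries. This scale understates changes of low genes. With 2 libraries a group, the smallest exact permutation p is 0.333. Differences between experiments came from 1 fit of 12 libraries. The procedure was tested on simulated data. The main fits have no replicate block. The entries whose symbols a spreadsheet had turned into dates (25 to 27 a table) stayed unnamed. The members and lists were chosen with earlier results of these data known. Named are all members and partner GTPases, up to 3 genes of smallest p per list, and the 3 genes of most similar pattern per member. Cybc1 and Ly6g were not matched, and 1 listed gene is not reported here. Alternatives are given in the closing section.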

Additional observations from a re-analysis of the deposited data

Results flagged for a closer look

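Each value here sets the effect of PRDM16 over PRDM16mut in 1 experiment against that in another, on log2(FPKM + 1), from 1 limma fit of all 12 libraries; each had a test of the difference itself. Between the MLL-AF9 and the E2A-HLF cotransduction the effect differed by -2.17 for Ncf4, -1.36 for Ncf1, -0.94 for Rac2 and -0.53 for Cyba (limma adjusted p of 1.95e-09, 4.74e-09, 1.51e-06 and 0.000235). All 4 genes were lower in mean FPKM with PRDM16 in the first experiment, Cyba without passing its test there, and higher in the second. Between the MLL-AF9 cotransduction and the MLL-AF9 stable cells it differed by -1.62 for Ncf4, -0.89 for Ncf1 and -0.78 for Rac2 (3.81e-08, 2.36e-07 and 9.18e-06). Between E2A-HLF cotransduced and stable cells it differed by 0.55 for Ncf4, 0.48 for Cyba and 0.47 for Ncf1 (0.000253, 0.0014 and 6.67e-05). Of the 9475 genes in this fit, 71.4%, 64.0% and 37.0% differed in these 3 comparisons, in the order given. Passing was thus the usual outcome for a gene in the first 2. The experiments were deposited as separate tables. By the labels, the 2 cotransductions differ in fusion gene. The stable cells differ from both in starting cells and selection, and from the E2A-HLF cotransduction also in fusion gene. Mean Prdm16 with PRDM16 was 3.41, 1.06 and 0.86 times that with PRDM16mut in the MLL-AF9 cotransduction, E2A-HLF cotransduction and stable cells. The parts of these differences cannot be told apart.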

How the results depend on the processing

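Ncf1, Ncf4 and Rac2 in the MLL-AF9 cotransduction, and Cyba, Ncf1 and Ncf4 in the E2A-HLF cotransduction, kept direction and call under every alternative tried (pseudocount, filter, scaling, variance trend, shared spread, replicate block and each library left out). Rac2 in the E2A-HLF cotransduction lost its call at 0.06 under quantile normalization, 0.11 under median centring, 0.15 without a variance trend and 0.12 to 0.18 with 1 library left out. Without a filter, Cybb was 0.38 in the stable cells and no longer called, and it was called at -0.76 in the E2A-HLF cotransduction and at 0.44, -0.70 and -1.14 in the differences MLL-AF9 minus E2A-HLF cotransduction, MLL-AF9 cotransduction minus stable cells and E2A-HLF cotransduction minus stable cells. The 673 genes called in the stable cells became 41 without a filter, 278 without a variance trend, 298 with the spread shared over 12 libraries and 65 to 139 with 1 library left out; 66.0% of the called were higher, against 51.6% under quantile normalization. Values near 0 changed sign: Ncf4 in the stable cells (-0.02, quantile), Cyba in the difference MLL-AF9 cotransduction minus stable cells (0.02, median centring), and Rac1 in the MLL-AF9 cotransduction (-0.08, quantile), with the difference to the stable cells for Rac1 at 0.03 (median centring). The cause was not tested.

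With 1 library left out, Cybb ranged from -0.35 to -0.29 in the MLL-AF9 cotransduction and from 0.35 to 0.41 in the stable cells. In the MLL-AF9 cotransduction Cyba ranged from -0.14 to 0.03 and Rap1a from -0.19 to 0.02. In the stable cells Cyba ranged from -0.03 to 0.01, Ncf4 from -0.04 to 0.07 and Rac2 from -0.03 to 0.02. The difference MLL-AF9 cotransduction minus stable cells ranged from -0.14 to 0.04 for Cyba, and that of E2A-HLF cotransduction minus stable cells from 0.12 to 0.18 for Rac2. A group left with 1 library is assumed to vary like the others.

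The replicate number as a block gave 7812, 4354 and 664 genes called in the MLL-AF9 cotransduction, E2A-HLF cotransduction and stable cells, against 7698, 4822 and 673 without it, and among the members it changed only the call of Rac2 in the E2A-HLF cotransduction (0.15, limma adjusted p = 0.131). Deviations of same-numbered libraries correlated at 0.067, 0.289 and 0.319 across genes, in the same order. Same-numbered libraries thus tended to deviate together with E2A-HLF and in the stable cells. The labels do not say what the replicate numbers share. Depth is unknown, so no counting limit can be set for Cybb near 0.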

Other observations

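The 15 genes that handle the oxidants made from superoxide did not move as a block. In the MLL-AF9 cotransduction 9 were higher and 4 lower with PRDM16 (median 0.31), where 35.6% and 34.0% of all genes tested were. The eosinophil peroxidase Epx measured 7.01 and 8.63 FPKM with PRDM16, against 96.4 and 98.0 with PRDM16mut. The peroxiredoxin Prdx1 measured 798 and 707 FPKM with PRDM16, against 223 and 224 with PRDM16mut, and the haem oxygenase Hmox1 rose by 1.56. In the E2A-HLF cotransduction 5 of 14 tested were higher and 3 lower (median 0.07), where 22.7% and 21.1% of all genes tested were. Mpo, the neutrophil peroxidase that uses hydrogen peroxide made from superoxide, measured 561 and 526 FPKM with PRDM16, against 44.3 and 42.2 with PRDM16mut; the glutathione reductase Gsr rose by 0.97 and Prdx2 fell by 0.44. In the stable cells 2 of 14 tested were higher, Hmox1 (0.28) and Gpx4 (0.22), and 1 was lower, Mpo, at 495 and 465 FPKM with PRDM16, against 663 and 646 with PRDM16mut, where 4.20% of all genes tested were higher and 2.16% lower.

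The remaining marker lists gave these values. Mast cell and basophil markers had 5 of 8 tested higher and 1 lower in the E2A-HLF cotransduction and 0 of 5 called in the stable cells by limma. Erythroid markers had 3 of 11 higher and 1 lower in the E2A-HLF cotransduction, and 1 was tested in the stable cells. Their sum with E2A-HLF was 499 and 506 FPKM with PRDM16, against 851 and 953 with PRDM16mut. The only B cell marker tested, Cd79b, and the only T and NK cell marker tested, Lck, were lower with E2A-HLF (-1.04 and -0.78). Neither was called in the MLL-AF9 experiments. With E2A-HLF 22.7% of all genes tested were higher and 21.1% lower, so the erythroid share higher is near that of all genes. Of the 8 stromal markers, 6 were under 1 FPKM in every library, but the list summed to 189 and 201 FPKM with PRDM16, against 4.65 and 4.55 with PRDM16mut, in the E2A-HLF cotransduction, where Vcam1 was the only one tested and was called higher.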
